A study of Homo sapiens with 7 samples.

Results

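The aldehyde dehydrogenase (ALDH) genes other than ALDH1A1 were followed across 7 cultures of UM-UC-3, an established human bladder cancer line. The members were the 10 listed ALDH genes whose symbols are ALDH5A1, ALDH6A1, ALDH3B1, ALDH3A2, ALDH4A1, ALDH1B1, ALDH16A1, ALDH7A1, ALDH9A1 and ALDH18A1, out of 13872 genes in the table. ALDH-high clones (H1, H6 and H10) and ALDH-low clones (L1, L3 and L8) had been picked with ALDEFLUOR, an assay in which cells become fluorescent in proportion to their ALDH activity. The submitters treat the first as cancer stem-like cells and the second as their non-stem counterpart, and 1 culture of wild-type UM-UC-3 served as control. Each clone gave 1 library, all clones descend from the same line, and no drug or gene edit is named for any culture. The 3 libraries of a group are therefore different clones, and p-values measure the spread between clones.

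ALDH enzymes oxidise reactive aldehydes to carboxylic acids with NAD+ or NADP+, and the family is spread over the cytosol, mitochondria and endoplasmic reticulum. ALDH1A1, which makes retinoic acid, is the enzyme most often tied to ALDEFLUOR fluorescence and to stem-like tumour cells. Most of the genes described here serve housekeeping routes instead: breakdown of amino acids and GABA, proline synthesis, carnitine synthesis and removal of fatty aldehydes. Several of these enzymes can also act on small aldehydes. Their share in the activity used for sorting was not tested.

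The label of the sort was checked on ALDH1A1 itself, which was at 96.32, 33.37 and 42.2 CPM (reads of a gene scaled to the size of its library) in H1, H6 and H10 and at 0, 0.08 and 0 CPM in L1, L3 and L8, with 37.85 CPM in wild type. Of 19 ALDH genes in the human family list, 11 were in the table, and the other 8 were not analysed here. The recovered reads came to between 24177114 and 25664901 per library over the listed genes, and 1 read was worth 0.0393 to 0.041 CPM. In H1 and wild type these reads (25664901 and 25232850) exceeded the recovered library size (25165297 and 25021256). The cause of this excess was not tested. Counting intervals, indices of dispersion, edgeR and DESeq2 below treat the recovered values as reads. Of 16 urothelial markers only 4 were listed (KRT8, KRT18, PPARG and FOXA1), while uroplakins, GATA3, KRT5, KRT20, CDH1 and EPCAM were not. The 4 summed to 498 to 737 CPM in ALDH-high clones, 240 to 514 CPM in ALDH-low clones and 748 CPM in wild type. Nearly all of these sums came from KRT8 and KRT18. FOXA1 was at 0.40 to 0.68 CPM in the clones. PPARG had 1.31, 0.82 and 0.48 CPM in H1, H6 and H10 and 0.24, 7.94 and 3.16 CPM in L1, L3 and L8. None of 4 leukocyte, 3 endothelial and 5 fibroblast markers was listed.

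The sequences just upstream of the annotated starts are shown for the 3 genes with the largest differences between the sorted groups. Where transcription of these genes starts in these cultures was not tested. Each is the 250 bases before a RefSeq start (GRCh38.p14), written 5′ to 3′ on the gene's strand. RefSeq gives ALDH3B1 a pair of starts, and both windows are printed. Capitals mark matches on either strand to the CCAAT box (CCAAT), the GC box (GGGCGG), the TATA box (TATAAA), the E-box CACGTG and the core of the antioxidant response element (TGACNNNGC). No 2 matches overlapped.
ALDH5A1, chr6:24494719-24494968, plus strand: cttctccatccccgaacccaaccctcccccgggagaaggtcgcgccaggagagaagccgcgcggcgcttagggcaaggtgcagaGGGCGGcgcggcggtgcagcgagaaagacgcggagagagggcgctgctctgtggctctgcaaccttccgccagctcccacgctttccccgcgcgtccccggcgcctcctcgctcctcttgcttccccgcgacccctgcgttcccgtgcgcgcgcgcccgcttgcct
ALDH6A1, chr14:74084454-74084703, minus strand: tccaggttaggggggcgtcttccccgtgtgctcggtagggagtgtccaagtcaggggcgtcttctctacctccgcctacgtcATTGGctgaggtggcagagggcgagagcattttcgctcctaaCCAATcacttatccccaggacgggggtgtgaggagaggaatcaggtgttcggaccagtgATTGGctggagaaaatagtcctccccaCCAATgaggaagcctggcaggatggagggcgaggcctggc
ALDH3B1, first start, chr11:68008297-68008546, plus strand: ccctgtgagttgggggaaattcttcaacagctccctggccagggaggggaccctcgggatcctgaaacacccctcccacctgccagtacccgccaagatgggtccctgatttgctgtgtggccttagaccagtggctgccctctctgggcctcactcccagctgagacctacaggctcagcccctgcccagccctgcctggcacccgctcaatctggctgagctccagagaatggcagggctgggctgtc
ALDH3B1, second start, chr11:68010077-68010326, plus strand: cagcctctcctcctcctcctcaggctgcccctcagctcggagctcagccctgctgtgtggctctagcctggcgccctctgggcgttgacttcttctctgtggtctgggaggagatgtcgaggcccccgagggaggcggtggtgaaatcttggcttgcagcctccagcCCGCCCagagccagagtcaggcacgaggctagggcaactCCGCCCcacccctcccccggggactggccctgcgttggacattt
The windows differed in composition. ALDH5A1 had 72% G and C and 33 CpG dinucleotides, a number that 93.2% of all 35116 RefSeq windows of this length do not exceed. Its only match was 1 GC box, a motif held by 42.6% of all windows. ALDH6A1 had 4 CCAAT boxes, 2 in each orientation, where 32.0% of all windows hold at least 1 and 0.874% hold 4 or more. The first ALDH3B1 window had 3 CpG dinucleotides and no match, and the second had 11 and 2 GC boxes. A match describes letters in the window and was not tested as a binding site.

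ALDH5A1 (ENSG00000112294, chromosome 6) was the only gene of the 10 to pass the test between the sorted groups. It encodes the mitochondrial succinate semialdehyde dehydrogenase, which completes the breakdown of the neurotransmitter GABA by feeding succinate into the citric acid cycle. Its level was 15.42, 13.59 and 11.44 CPM in H1, H6 and H10, against 4.36, 3.54 and 5.08 CPM in L1, L3 and L8. The lowest ALDH-high clone stood 2.25-fold above the highest ALDH-low clone. The group means were 13.5 ± 1.99 and 4.33 ± 0.771 CPM (SD, n = 3 each), a ratio of 3.12. On the log2(CPM + 1) scale, which understates changes of weakly expressed genes, it rose by 1.44 (95% interval 0.96 to 1.93; limma adjusted p = 0.0264). The wild type, at 13.55 CPM, lay among the ALDH-high clones. In these bulk cultures, more cells with the transcript and more transcript per cell cannot be told apart. The call was lost when any clone but L3 was left out (limma adjusted p between 0.0506 and 0.113), with differences of 1.35 to 1.55.

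Among all 12705 tested genes, 1.34% passed, 0.645% in the upward direction, so 1 of 10 is a single gene and not a statement about the family. By limma 9 of the 10 did not pass, and 0 fell, beside 0.693% of all tested genes (1 of the lower genes at an unadjusted p under 0.05, 0 by edgeR, 1 by DESeq2). At an unadjusted p under 0.05 there were 3 of 10 (ALDH5A1, ALDH6A1 and ALDH3B1), beside 19.7% of all tested genes, and edgeR passed 1 of 10, beside 1.02%. DESeq2 passed the same 3 of 10, beside 7.90%. The median difference of the 10 was 0.03 log2 units, beside 0.0036 over all tested genes. The 3 ALDH-high libraries and the 3 ALDH-low libraries did not overlap in 4 of the 10 genes (ALDH5A1, ALDH6A1, ALDH3A2 and ALDH3B1). Such separation was found in 26.1% of all tested genes. Of the 4, 3 were higher in ALDH-high clones (14.0% of all tested genes) and 1 was lower (12.1%). An exact permutation test of 3 clones against 3 cannot go below p = 0.1.

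**Figure D1:**
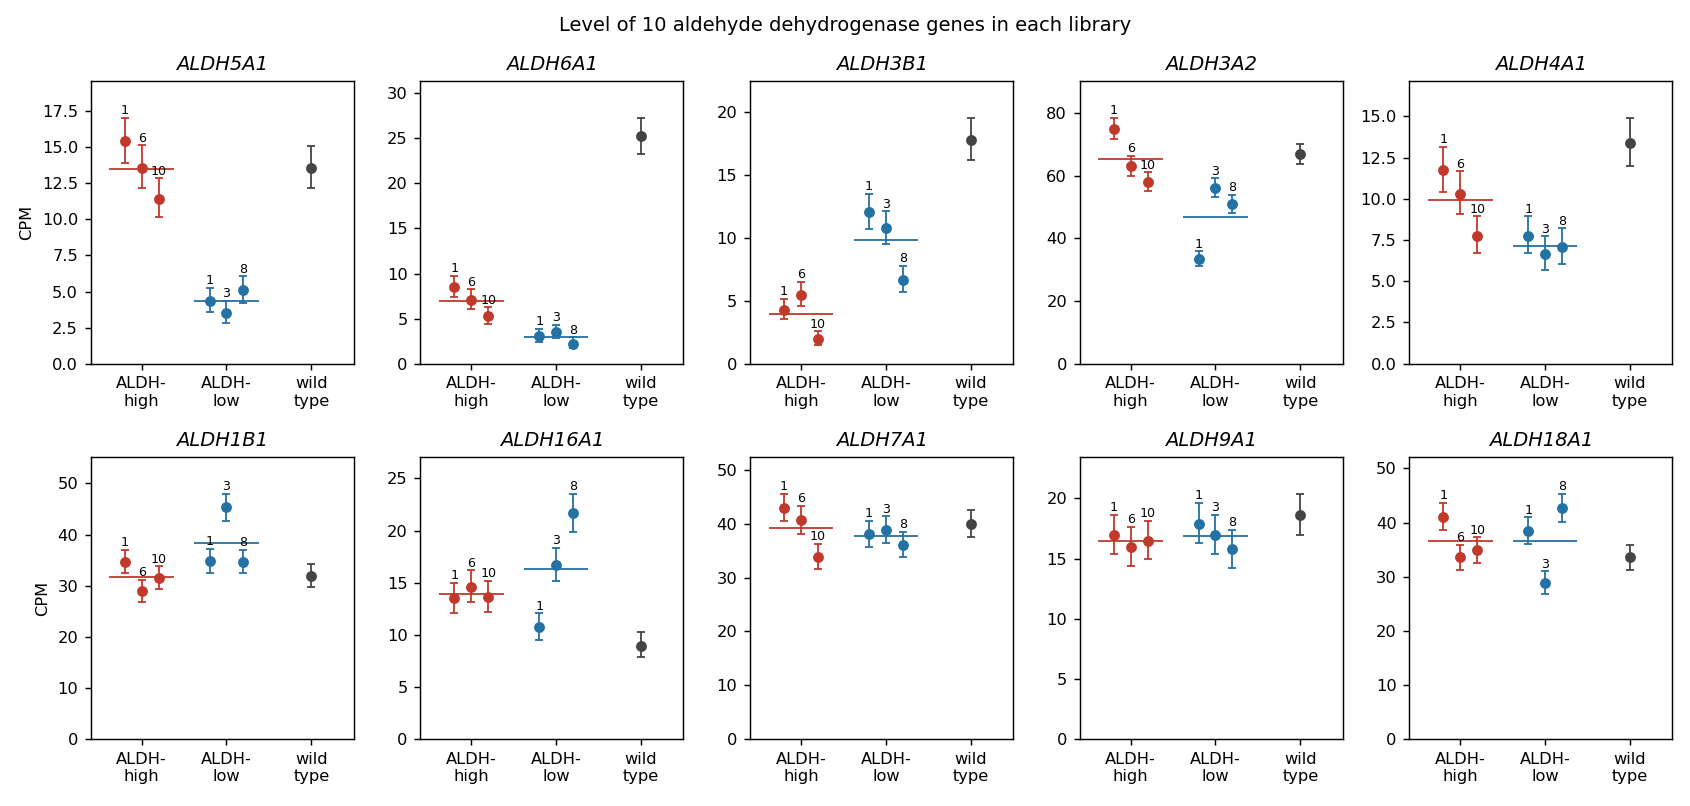
CPM of each of the 10 genes by group, with 1 point per library, clone numbers above the points, exact 95% Poisson intervals for counting error as bars and group means of the sorted clones as horizontal lines. ALDH5A1 and ALDH6A1 are higher and ALDH3B1 lower in all 3 ALDH-high clones, while the wild type stands above all clones for ALDH6A1, ALDH3B1, ALDH4A1 and ALDH9A1 and below them for ALDH16A1.

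ALDH6A1 (ENSG00000119711, chromosome 14) encodes methylmalonate semialdehyde dehydrogenase, a mitochondrial enzyme of valine and thymine breakdown. It was at 8.5, 7.1 and 5.28 CPM in H1, H6 and H10 and at 3.08, 3.54 and 2.24 CPM in L1, L3 and L8. The groups did not overlap, with a ratio of means of 2.36 (6.96 ± 1.61 against 2.95 ± 0.66 CPM). The difference, with a 95% interval of 0.45 to 1.56 log2 units, did not pass with limma (adjusted p = 0.0891) or edgeR (adjusted p = 0.106). DESeq2, which called 7.90% of all tested genes, passed it (adjusted p = 0.0138). The wild type behaved unlike either group: at 25.22 CPM it was 2.97-fold above the highest clone and 8.54-fold above the ALDH-low mean. Of all tested genes 3.19% had a wild-type value at least 2-fold beyond the nearest clone, and ALDH6A1 was the only 1 of the 10.

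ALDH3B1 (ENSG00000006534, chromosome 11) went the other way. Its product oxidises medium-chain and long-chain aldehydes, such as those that arise from lipid peroxidation, and is attached to membranes. H1, H6 and H10 had 4.29, 5.5 and 1.96 CPM, and L1, L3 and L8 had 12.08, 10.76 and 6.68 CPM. The groups were separated by a factor of 1.21 between the nearest clones, with means of 3.92 ± 1.80 and 9.84 ± 2.82 CPM. The difference was -1.18 log2 units (95% interval -1.97 to -0.39), with adjusted p of 0.123 by limma, 0.146 by edgeR and 0.0294 by DESeq2. Wild type had 17.82 CPM, 1.48-fold above the highest clone, so the ALDH-high clones were farther from wild type than the ALDH-low clones. ALDH3B2, a close paralogue, was not in the table, and the sources used here do not say how reads shared by the pair were assigned.

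ALDH3A2 (ENSG00000072210, chromosome 17), the fatty aldehyde dehydrogenase of the endoplasmic reticulum, is the enzyme lost in Sjögren-Larsson syndrome. It was at 74.98, 63.04 and 58.04 CPM in H1, H6 and H10 and at 33.48, 56.17 and 50.96 CPM in L1, L3 and L8. The groups were apart by a factor of only 1.03 between H10 and L3, whose counting intervals (55.1 to 61.1 and 53.3 to 59.2 CPM) overlapped. The difference of 0.50 log2 units did not pass with limma (adjusted p = 0.256), and without L1 it was 0.28. Wild type, at 66.78 CPM, lay among the ALDH-high clones.

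**Figure D2:**
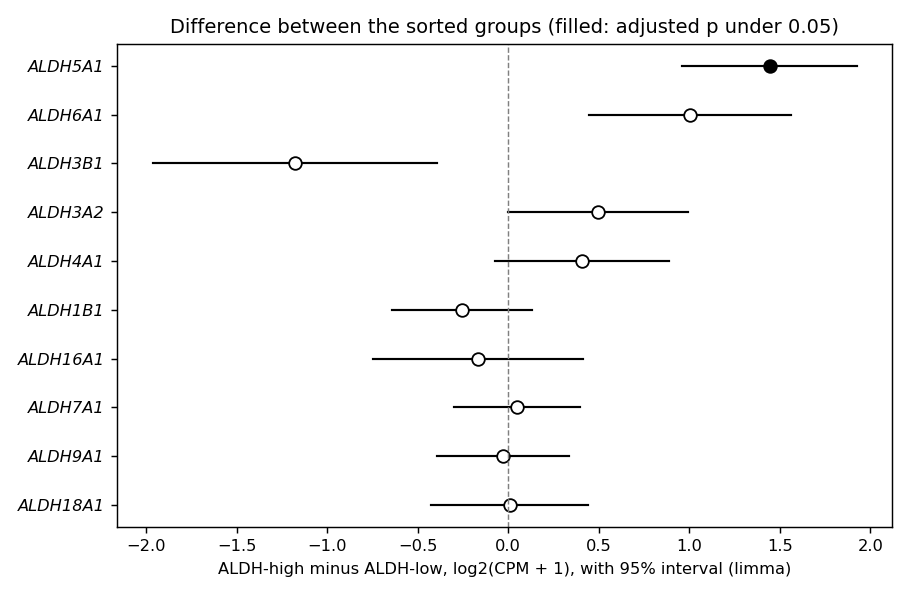
Difference between ALDH-high and ALDH-low clones on the log2(CPM + 1) scale for the 10 genes, with 95% intervals from limma and a filled point where the adjusted p is under 0.05. Only ALDH5A1, at 1.44, is filled, and the intervals of ALDH6A1 and ALDH3B1 also leave out 0.

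Proline metabolism is served by a pair of mitochondrial members that work in opposite directions. ALDH4A1 (ENSG00000159423, chromosome 1), which turns pyrroline-5-carboxylate from proline into glutamate, had 11.72, 10.3 and 7.76 CPM in H1, H6 and H10 and 7.76, 6.64 and 7.08 CPM in L1, L3 and L8. H10 and L1 tied, so the groups touched, and wild type was above all clones at 13.39 CPM. The difference of 0.41 log2 units had an interval of -0.07 to 0.89 (limma adjusted p = 0.331).

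ALDH18A1 (ENSG00000059573, chromosome 10), which makes pyrroline-5-carboxylate from glutamate for proline and ornithine synthesis, averaged 36.5 ± 4.03 and 36.7 ± 7.12 CPM in the ALDH-high and ALDH-low clones. Its interval ran from -0.42 to 0.44 log2 units, which leaves room for a change of either sign. The extremes were both ALDH-low clones, with 28.83 CPM in L3 and 42.72 CPM in L8, and wild type had 33.57 CPM.

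Another mitochondrial aldehyde oxidiser, ALDH1B1 (ENSG00000137124, chromosome 9), acts on acetaldehyde and retinaldehyde. Its H1, H6 and H10 had 34.69, 28.93 and 31.52 CPM, L1, L3 and L8 had 34.8, 45.29 and 34.68 CPM, and wild type had 31.89 CPM. L3 alone was high, and the 2 other ALDH-low clones were level with H1. The difference was -0.26 log2 units (interval -0.64 to 0.13; limma adjusted p = 0.446), and -0.13 without that clone.

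ALDH7A1 (ENSG00000164904, chromosome 5), antiquitin, oxidises a semialdehyde of lysine breakdown and also betaine aldehyde. ALDH-high clones ranged from 33.84 to 42.92 CPM and ALDH-low clones from 36.08 to 38.85 CPM, so the ALDH-low range lay inside the ALDH-high one. Wild type, at 39.93 CPM, was above the ALDH-low clones and among the ALDH-high clones. The difference of 0.048 log2 units had an interval of -0.30 to 0.40. ALDH9A1 (ENSG00000143149, chromosome 1), which makes the carnitine precursor gamma-butyrobetaine, was the steadiest of the 10. It had 16.97, 15.97 and 16.48 CPM in H1, H6 and H10, 17.88, 16.97 and 15.76 CPM in L1, L3 and L8, and 18.62 CPM in wild type. The interval of its difference was -0.40 to 0.33 log2 units.

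ALDH16A1 (ENSG00000161618, chromosome 19) is the odd member, a long protein generally thought to lack the catalytic cysteine in mammals. H1, H6 and H10 were close together at 13.51, 14.61 and 13.64 CPM, while L1, L3 and L8 were spread over 10.72, 16.7 and 21.64 CPM. Wild type was below every clone at 8.99 CPM. The groups overlapped, and the difference was -0.17 log2 units (interval -0.75 to 0.41).

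The spread between clones was set against counting error with the index of dispersion, the variance of the reads over the variance that counting alone gives, so that 1 means no spread beyond counting. Over the 6 clones it was 0.897 for ALDH9A1, while its median over all tested genes was 24.0. Only 0.582% of tested genes (74 of 12705) had an index of at most 1, and of 2952 genes with a mean of 10 to 25 CPM, 0.339% were at or under ALDH9A1. The highest among the 10 were ALDH3A2 at 84.5, ALDH5A1 at 76.1 and ALDH3B1 at 54.6, and ALDH7A1 was low at 6.76. These values over 6 clones include the difference between the groups: within the ALDH-high and ALDH-low clones ALDH5A1 had only 7.37 and 3.49, and ALDH3B1 20.5 and 20.1. Within the ALDH-low clones the highest were ALDH3A2 at 75.7, ALDH16A1 at 45.7 and ALDH18A1 at 34.9. At the same relative spread the index grows with the number of reads, so these rankings also follow the level of a gene. By SD over mean, the highest within the ALDH-low clones were ALDH16A1 (33.4%), ALDH3B1 (28.6%) and ALDH3A2 (25.4%). Over the 6 clones the highest was 6.16-fold the lowest for ALDH3B1, 4.36-fold for ALDH5A1 and 2.24-fold for ALDH3A2. ALDH16A1 had 0.64 in ALDH-high clones, and ALDH7A1 had 14.3 in ALDH-high and 1.35 in ALDH-low clones. With 3 clones a group these indices are descriptions and were not compared by a test.

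**Figure D3:**
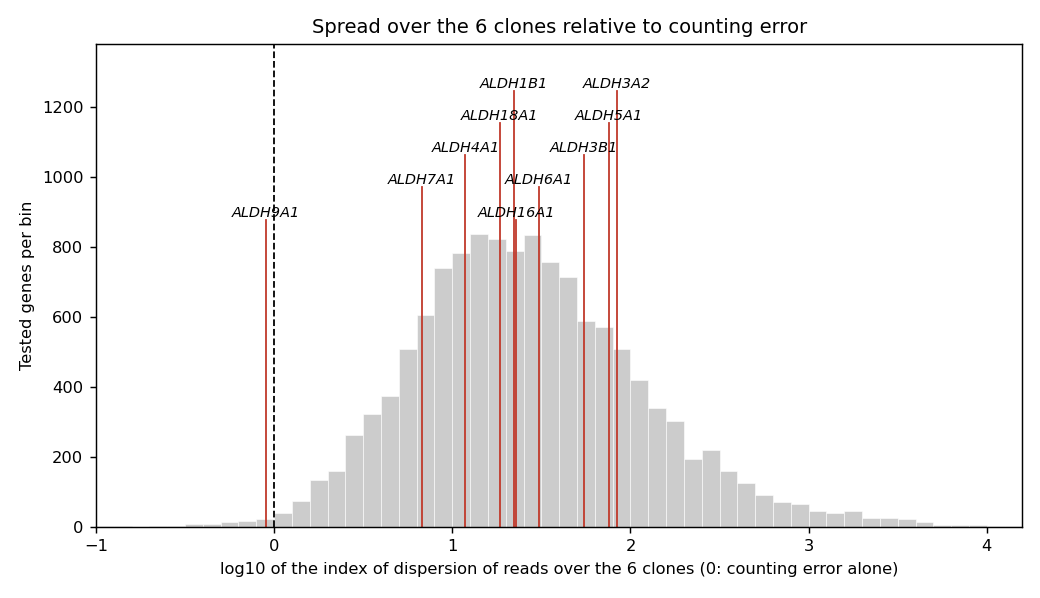
Number of tested genes by the log10 index of dispersion of their reads over the 6 clones (grey bars), with the 10 ALDH genes as red lines and counting error alone as a dashed line at 0. ALDH9A1, at an index of 0.897, is the only one of the 10 left of the dashed line, and the other 9 lie within the bulk of the genes.

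The order of the clones within each group was counted over the 10 genes, with no test. Among the ALDH-high clones H1 had the highest value in 8 of the 10 genes, and H10 the lowest in 6, ALDH5A1, ALDH6A1 and ALDH3A2 among them. Over all tested genes H1 was the highest of the 3 in 41.7% and H10 the lowest in 33.0%. ALDH1A1 was also highest in H1, but lowest in H6. Among the ALDH-low clones L1, L3 and L8 were highest in 3, 4 and 3 of the 10 genes, beside 25.7%, 35.9% and 38.0% of all tested genes. They were lowest in 2, 3 and 5 of the 10, beside 39.0%, 34.7% and 25.6%. The CPM column of H1 had the largest total, 1019855.06 CPM, and its median-ratio scaling factor was 1.03, beside 1.03 and 1.01 for H6 and H10.

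With a single wild-type library, its position relative to the clones is a description. It lay outside the range of the 6 clones in 5 of the 10 genes, above in 4 and below in 1. Over all tested genes this held for 48.0% (22.6% above and 25.4% below), so the share among the 10 is that of genes in general. On the log2 scale it was nearer to the ALDH-high than to the ALDH-low mean in 7 of the 10, beside 56.8% of all tested genes.

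The enzymes that share a pathway with each member were read from lists covering its substrates and products. Around ALDH5A1, 10 other genes of GABA and succinate semialdehyde metabolism were tested, and limma and edgeR passed 0 of them, with 4 at an unadjusted p under 0.05 (19.7% of all tested genes) and 2 by DESeq2 (7.90%). The shares over all tested genes are the same for the lists that follow. Their median difference was -0.19 log2 units, against the 1.44 of ALDH5A1. SLC6A6, a taurine transporter, was at 12.3 ± 2.38 CPM in ALDH-high and 22.2 ± 5.47 CPM in ALDH-low clones (limma adjusted p = 0.124). SUCLA2, a subunit of succinyl-CoA synthetase, was at 41.8 ± 4.91 and 61.55 ± 8.79 CPM (adjusted p = 0.134). ABAT, the transaminase that produces succinate semialdehyde from GABA, was not in the table.

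Around ALDH6A1, 29 other genes of branched-chain amino acid, propionate and pyrimidine breakdown were tested. Limma and edgeR passed 0, 7 had an unadjusted p under 0.05 (19.7% of all tested genes) and DESeq2 passed 2 (7.90%). The fitted difference was below 0 in 18 of the 29, with a median of -0.13 log2 units. PCCA, a subunit of propionyl-CoA carboxylase, had 10.41, 9.77 and 9.44 CPM in H1, H6 and H10 against 15.36, 21.17 and 17.6 CPM in L1, L3 and L8. Its groups did not overlap, in the direction opposite to ALDH6A1 (-0.80 log2 units, limma adjusted p = 0.0812). DPYD, the first enzyme of thymine and uracil breakdown, had 44.94, 22.16 and 26.52 against 16.6, 14.97 and 13.2 CPM, also without overlap and in the same direction as ALDH6A1 (0.96 log2 units, adjusted p = 0.112).

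Of the 11 other proline, ornithine and glutamate genes limma and edgeR passed 0 (2 unadjusted, 1 by DESeq2). P4HA2, a subunit of the enzyme that hydroxylates proline in collagen, was at 13.02 ± 2.89 against 30.8 ± 11.6 CPM (limma adjusted p = 0.106). Of the 8 lysine, choline and carnitine genes limma, edgeR and DESeq2 passed 0, with 2 at an unadjusted p under 0.05.

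AASS, which opens lysine breakdown upstream of ALDH7A1, had 12.2, 7.22 and 4.04 CPM in H1, H6 and H10 and 0.2, 7.58 and 0.04 CPM in L1, L3 and L8. Only L3 carried it at the ALDH-high level. The difference of 1.89 log2 units (limma adjusted p = 0.226) did not pass, nor with edgeR (adjusted p = 0.558). Leaving out 1 clone gave 1.35 to 2.87, and it passed with limma only without L3 (adjusted p = 0.0304, against up to 0.482 without another clone). TMLHE, which starts carnitine synthesis upstream of ALDH9A1, was at 17.0 ± 7.95 against 26.8 ± 2.69 CPM (adjusted p = 0.234).

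For the fatty aldehyde and sphingolipid genes around ALDH3A2 and ALDH3B1, limma and edgeR passed 0 of 13 (3 unadjusted, 1 by DESeq2), with a median of -0.07 log2 units. PEX5, the import receptor of peroxisomal enzymes, was at 20.7 ± 3.21 against 12.1 ± 1.18 CPM (limma adjusted p = 0.1003), and the acyl-CoA synthetase gene ACSL1 at 13.1 ± 1.75 against 7.77 ± 1.08 CPM (adjusted p = 0.122).

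Enzymes outside the ALDH family that also handle aldehydes were tested in 14 genes, and the fitted difference was below 0 in 11 of them (median -0.45 log2 units). Limma passed 0, 4 had an unadjusted p under 0.05 (19.7% of all tested genes), edgeR passed 1 (1.02%) and DESeq2 2 (7.90%). AKR1C1, an aldo-keto reductase with near-identical paralogues, had 0, 0.04 and 0 CPM in H1, H6 and H10 against 29.48, 1.49 and 15.28 CPM in L1, L3 and L8, with 1.08 CPM in wild type. The groups did not overlap, although L3 was far below the other two. Its adjusted p was 0.0812 by limma, 0.0383 by edgeR and 4.11e-06 by DESeq2, and by limma 0.0035 without L3 but up to 0.219 without another clone. With ALDH-high values near 0, the limma result depended on the 1 added to CPM. Adding 0.1 gave -6.33 log2 units (limma adjusted p = 0.036), and adding 5 gave -1.72 (adjusted p = 0.129). AOX1, an aldehyde oxidase, was at 2.37 ± 1.16 against 6.66 ± 3.46 CPM (limma adjusted p = 0.159).

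**Figure D4:**
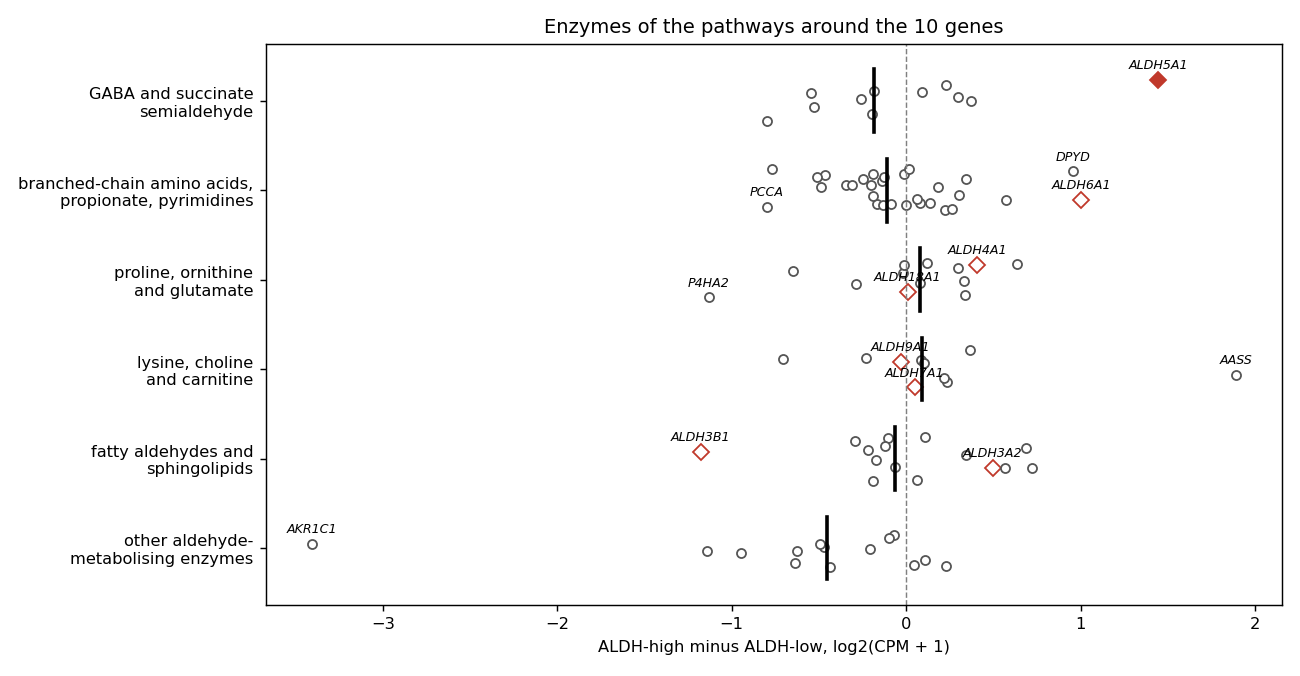
Difference between ALDH-high and ALDH-low clones on the log2(CPM + 1) scale for the tested genes of 6 pathway lists, with the ALDH members as red diamonds, the others as grey circles, list medians as black bars and filled symbols for a limma adjusted p under 0.05. ALDH5A1, at 1.44, is the only filled symbol, and the list of other aldehyde-metabolising enzymes has its median at -0.45.

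The genes closest in pattern to the 4 members whose groups did not overlap were found by Pearson correlation of log2(CPM + 1) over the 7 libraries, among 9960 other tested genes with a mean of at least 5 CPM. These are descriptions, since so many genes are ranked over 7 libraries that share groups. ALDH5A1 was followed most closely by ZFYVE20 (r = 0.993), ZNF589 (0.989) and EDIL3 (0.983). ZNF589 had 8.44 ± 0.624 CPM in ALDH-high and 4.32 ± 0.558 CPM in ALDH-low clones, with 8.39 CPM in wild type. The ranking used wild type as well, so a wild type at the ALDH-high level is part of how the gene was picked. EDIL3, a secreted integrin ligand, was at 35.3 ± 10.8 against 0.347 ± 0.326 CPM and rose by 4.74 log2 units (limma adjusted p = 0.000579).

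ALDH6A1 was matched by C17orf49 (r = 0.999), AKAP7 (0.988) and ZER1 (0.986), all with their highest value in wild type. C17orf49 stood at 119 ± 10.2 CPM in ALDH-high and 83.3 ± 6.52 CPM in ALDH-low clones, with 217.54 CPM in wild type. It overlaps the readthrough gene RNASEK-C17orf49, and how shared reads were split is not stated. For ALDH3B1 the nearest were USP11 (r = 0.992), SELO (0.990) and MSMO1 (0.987). MSMO1, an enzyme of cholesterol synthesis, had 59.9 ± 12.9 CPM in ALDH-high and 109 ± 14.6 CPM in ALDH-low clones and 144 CPM in wild type (limma adjusted p = 0.0804). ALDH3A2 was nearest to SYNE1 (r = 0.991), GPCPD1 (0.986) and MRPS17 (0.977), which share its lowest value in L1.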

How the data were processed

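RNA from 7 UM-UC-3 cultures was sequenced by the authors, who deposited 1 table of gene values in CPM rounded to 2 decimals. The aligner BWA (0.5.9) is named, per the submitters' processing notes, as are hg19 and mm9, without their roles. Column headers mention CAGEr, a tool for cap-selected 5′ ends. The library type and the counting of reads to genes are not given in the sources used here, so levels were not compared between genes.

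The sorted groups were fitted with limma 3.58.1 (R 4.3.3, two-sided, eBayes with trend) after taking log2(CPM + 1). Genes reaching 1 CPM in 3 or more of the 6 clones were kept, which left 12705 and all 10 members. Benjamini-Hochberg adjustment ran over all tested genes, with a threshold of 0.05. A column moves in steps of 1 read. Whole reads were recovered for 100% of values at a tolerance of 0.0051 CPM, and for 78.25 to 100% of those under 20 CPM at 0.1 read, since rounding can exceed 0.1 read in 4 columns. edgeR 4.0.16, which called 129 genes, and DESeq2 1.42.0, which called 1004, were run on these reads as alternatives. Intervals on single values are exact Poisson and cover counting error only. None of the 10 members shares all 7 values with another gene, as 1017 listed genes do.

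Members and gene lists were chosen with earlier results of these data known. The text names the members, ALDH1A1, list genes past the threshold (or the 2 with the smallest p), the 3 genes closest in pattern to each of 4 members, and the 2 nearest tested neighbours on each side of 3 members. 1 list gene that this rule names is not reported here. Neighbour order and chromosome names came from GENCODE 29 (GRCh38), matched by identifier for 96.75% of tested genes. Promoter windows came from RefSeq (GRCh38.p14), with 9 of the 10 members matched. The read recovery and the limma fit were tested on simulated data. There limma found 22% of 100 genes changed 2-fold and 88% of 100 changed 4-fold, and called 13 unchanged genes. A gene that did not pass can therefore still differ by about 2-fold.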

Additional observations from a re-analysis of the deposited data

How the results depend on the processing

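The 19 alternatives were 2 pseudocounts, 2 filters, 2 scalings, 3 variance or weight settings, all 7 libraries in the fit, 1 gene per set of identical values, edgeR, DESeq2 and each of the 6 clones left out. In 179 of 190 values the members kept their direction. With all clones kept, ALDH5A1 passed under all 13 alternatives (0.98 to 1.63 log2 units, adjusted p up to 0.0338), but leaving out 1 clone gave 1.33 to 1.55, with adjusted p from 0.0455 to 0.113, and 0 to 1 members passing. DESeq2 passed 3 members, beside 7.90% of all tested genes, with ALDH6A1 at 1.22 and ALDH3B1 at -1.36. All tested genes passing numbered 170, against 86 with a filter at 5 CPM, 700 with library weights, 1004 with DESeq2 and 34 to 173 with a clone left out. Among the members the sign turned only in the 4 with differences of -0.17 to 0.05 (11 values), and the cause was not tested. ALDH18A1 was at -0.0115 with median-ratio scaling, -0.0977 with library weights, -0.028 with edgeR, -0.0193 with DESeq2 and -0.15 to 0.12 with a clone left out. ALDH7A1 was at -0.0188 with library weights and -0.0204 to 0.15 with a clone left out. ALDH9A1 was at 3.39e-05 with quantile normalization and -0.0765 to 0.00945 with a clone left out, and ALDH16A1 at -0.42 to 0.0501. Of the neighbouring genes, MRS2 was at -0.13 and TDP2 at 0.0203 with library weights, and at -0.20 to 0.14 and -0.0777 to 0.0538 with a clone left out. No paired analysis was possible because the ALDH-high and ALDH-low clones share only the number 1, which names unrelated clones. At this depth 3 reads were worth 0.118 to 0.123 CPM, and all 10 members were far above that in every library.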

Other observations

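Genes next to the members on the chromosome were read in the same fit, as values. Beside ALDH5A1 on chromosome 6, the nearest tested genes were MRS2, a mitochondrial magnesium channel, and TDP2, a DNA repair phosphodiesterase. They differed by 0.027 and -0.031 log2 units between ALDH-high and ALDH-low clones, and ACOT13, the next gene, by 0.23 (limma adjusted p from 0.625 to 0.957). ACOT13 was at 0.0414 without L8, 0.0505 without H1 and 0.40 without L3. SOX4, the next tested gene on the other side at 2902 kb between starts, had 6.2, 9.11 and 3.8 CPM in H1, H6 and H10 against 0.64, 2.55 and 2.76 CPM in L1, L3 and L8, and 14.07 CPM in wild type (1.33 log2 units, adjusted p = 0.131). The groups of SOX4 did not overlap.

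UNC93B1, which carries nucleic acid-sensing Toll-like receptors to endosomes, is the tested gene just before ALDH3B1 on chromosome 11. It had 6.04, 9.48 and 8.4 CPM in H1, H6 and H10 against 30.84, 13.24 and 18.88 CPM in L1, L3 and L8. Its difference of -1.23 log2 units (limma adjusted p = 0.0972) was close to the -1.18 of ALDH3B1, and in both genes the groups did not overlap. The genes on the other side, RP5-901A4.1 and NDUFS8, differed by 0.32 and 0.26, and FAM86C2P, the next tested gene beyond UNC93B1, by 0.34. Their groups overlapped, with limma adjusted p of 0.549, 0.429 and 0.461. RP5-901A4.1 was weakly expressed, with means of 1.27 CPM in ALDH-high and 0.807 CPM in ALDH-low clones. With a clone left out, the differences of RP5-901A4.1, NDUFS8 and FAM86C2P ran from 0.15 to 0.49, 0.19 to 0.42 and 0.16 to 0.45. In wild type UNC93B1 was inside the range of the clones at 14.35 CPM, unlike ALDH3B1.

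Around ALDH6A1 on chromosome 14 none of the 4 nearest tested genes passed. The fitted differences of ENTPD5, CCDC176, LIN52 and ABCD4 were 0.64, 0.48, 0.40 and -0.17 log2 units (limma adjusted p from 0.162 to 0.625). The groups were separate in all 4, beside 26.1% of all tested genes. ENTPD5, CCDC176 and LIN52 were higher in ALDH-high clones, as was ALDH6A1, and ABCD4 was lower. Whether these genes change together with ALDH6A1 was not tested. CCDC176, like ALDH6A1, had its highest value in wild type, at 3.52 CPM. Its level was 2.38, 2.01 and 1.52 CPM in H1, H6 and H10 and 1.08, 1.18 and 1.08 CPM in L1, L3 and L8. In the other 3 genes wild type lay within the range of the clones.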
